A study of Mus musculus with 2 samples.

Results

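The constant regions of the mouse antibody heavy chains (Ighm, Ighd, Igha, Ighe, Ighg1, Ighg2b, Ighg2c and Ighg3), the kappa light chain (Igkc) and the J chain (Jchain) were followed across the cells of mouse spleen. These 10 genes were chosen by name from the 32285 genes of the count table, and all 10 had at least 1 count. The spleens came from wild-type C57BL/6 mice, 8 weeks old, all of them sensitized against ovalbumin (OVA) on days 0 and 10. Mice were then left untreated, given the Standard desensitization (OVA in PBS on days 20, 22 and 24 and OVA in Alum on days 40 and 60), or given a DCIR-2-Fusion protein carrying OVA on days 20, 22 and 24. The study's methods add an OVA challenge of the mice on day 80, before the spleens were taken. The spleen cells were restimulated for 3 h with PMA and ionomycin, which activate lymphocytes without antigen, and CD45+ CD11b- and CD45+ CD11b+ fractions were mixed 1:1 and frozen. The mix raises the share of CD11b+ cells, so shares of cell classes are not those of the spleen.

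All cells went into 1 pool, from which RNA and hashtags were read. The labels do not say which of the 4 hashtags marks which of the 3 conditions, so the therapies are not compared, and hashtags are given as samples of unknown condition. The pool has no replicates. There is therefore no test and no p-value, and every interval is a 95% interval for counting error alone (exact Poisson for levels, Clopper-Pearson for shares, conditional binomial for ratios). A level is given as CPM, the molecule counts (UMIs) of a gene per 1000000 UMIs of all genes in a class of cells. In such data, free RNA from lysed cells enters every droplet, and fewer producing cells cannot be told apart from less RNA per producing cell in a summed level.

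An antibody is built from heavy and light chains, and the constant region of the heavy chain sets its class. A naive B cell makes IgM and IgD from the same rearranged gene by alternative RNA processing. After activation, class switching joins the variable region to a downstream constant gene and deletes the DNA between them, and plasma cells then secrete the antibody in bulk. The J chain links IgM and IgA units into polymers. IgE, which arms mast cells and basophils, is the class behind type I allergy, the disease that OVA sensitization models.

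The 8 heavy chain genes lie on the minus strand of chromosome 12 (GRCm38, GENCODE annotation), in the order in which switching can reach them. Ighm is at chr12:113418558-113422730, Ighd at chr12:113406604-113416324, Ighg3 at chr12:113356224-113361232 and Ighg1 at chr12:113325240-113330523. Downstream follow Ighg2b at chr12:113302965-113307933, Ighg2c at chr12:113285325-113288932, Ighe at chr12:113269260-113273248 and Igha at chr12:113254830-113260236. Igkc lies on chromosome 6 (chr6:70726435-70726966, plus strand) and Jchain on chromosome 5 (chr5:88519809-88527891, minus strand).

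The coding ends of the secreted forms show what the classes share and what tells them apart. IgM and IgA end in a tailpiece whose penultimate cysteine bonds to the J chain. The last 60 coding bases of the transcript form that ends first, stop codon included, are given for these genes with the codon of that cysteine in capitals, Ighm from chr12:113420867-113420926 and Igha from chr12:113258768-113258827:
Ighm: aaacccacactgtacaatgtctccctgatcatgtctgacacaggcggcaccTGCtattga
Igha: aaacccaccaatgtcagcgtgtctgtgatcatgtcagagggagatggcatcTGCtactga

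Position by position, 41 of these 60 bases were the same in Ighm and Igha. The IgG subclasses lack the tailpiece, and their ends are shown because reads from similar genes can be hard to assign. Capitals mark the 26 of 60 positions that were not the same in all 4 subclasses (Ighg1 from chr12:113328976-113329035, Ighg2b from chr12:113306389-113306448, Ighg2c from chr12:113287389-113287448 and Ighg3 from chr12:113359665-113359724, all read on the minus strand):
Ighg1: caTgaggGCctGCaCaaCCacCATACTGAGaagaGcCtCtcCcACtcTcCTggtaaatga
Ighg2b: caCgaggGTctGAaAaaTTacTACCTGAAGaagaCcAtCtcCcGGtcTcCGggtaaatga
Ighg2c: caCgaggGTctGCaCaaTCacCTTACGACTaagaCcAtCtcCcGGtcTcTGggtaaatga
Ighg3: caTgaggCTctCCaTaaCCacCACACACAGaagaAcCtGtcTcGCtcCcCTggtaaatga

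Over the last 300 coding bases, the closest pair of subclasses was Ighg2b and Ighg2c with 76.0% of positions the same, and the most distant were Ighg2c and Ighg3 with 66.3%. These differences are spread along the sequence, but the counts come from the 3′ end of transcripts, much of it beyond the coding bases, and how shared reads were assigned was not examined. Secreted and membrane forms of a heavy chain are counted under 1 gene name and cannot be separated.

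Of 16829 barcodes, 16325 passed a filter of 200 or more genes and no more than 10% of UMIs from mitochondrial genes, with a median of 6474 UMIs. Within these, 376 cells met the plasma rule (at least 5 UMIs of Sdc1, Prdm1, Mzb1 and Xbp1 together and no Trac), 691 were follicular B (at least 2 UMIs of Cd79a and Ms4a1, and Fcer2a present) and 1539 other B (the same without Fcer2a). T cells (1532, at least 2 UMIs of Cd3d, Cd3e and Cd3g) and NK cells (4599, at least 2 UMIs of Ncr1 and Klre1) do not make antibody and gave the background. A further 857 cells met a T or NK rule together with another lineage rule and were kept apart as mixed, and 6731 met no rule. In these 6731 cells Ighd was at 68.3 CPM, against 6.71 in T cells, and they held 2847 of its 5876 UMIs. The B classes thus need not hold all B cells of the pool. Median depths were 15764.5 UMIs under the plasma rule, 8553 in follicular B, 9282 in other B, 9128 in T and 5665 in NK cells, and no barcode was listed more than 1 time.

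The B, T and NK names mostly held against markers that the rules did not use. Ebf1, a B cell transcription factor, had a UMI in 95.5% of follicular B and 92.7% of other B cells against 11.2% of T cells. Trbc2 had a UMI in 86.3% of T against 29.4% of NK cells, and Gzma in 96.9% of NK against 16.4% of T cells. Trbc1 did not separate them, with 60.6% of T and 64.2% of NK cells. Klrb1c and Eomes had a UMI in only 36.6% and 48.2% of NK cells. The plasma name did not hold. The summed level of 10 plasma cell markers was 1391 CPM in that class, below the 2017 CPM of follicular B. Of the 376 cells, 215 had under 10 heavy chain UMIs, and in these Lyz2, a lysozyme of myeloid cells, had a UMI in 51.2%, Klrk1 in 42.8% and Csf1r in 20.9%. The summed level of 7 monocyte, macrophage and neutrophil markers was 26498 CPM in these cells, against 59.3 CPM in the 161 cells with 10 or more heavy chain UMIs. The class is therefore called by its rule. Values are also given for 166 of its cells chosen for Mzb1, a chaperone of antibody assembly. These also had no UMI of Lyz2, Siglech, Flt3, Cd3d, Cd3e, Cd3g, Ncr1 or Klre1. The choice did not take out B cell transcripts. The B cell markers had a UMI in 95.2% of the 166 cells, at a summed 1094 CPM against 1814 CPM in follicular B. The 10 plasma cell markers summed to 1653 CPM in the 166 cells, also below the 2017 CPM of follicular B. That order came from Irf4, Slamf7 and Pou2af1, at 431, 317 and 250 CPM against 747, 555 and 324. The other markers were higher in the 166 cells. Derl3 was at 19.7 against 0.429 CPM, Fkbp11 at 29.7 against 2.14, Creld2 at 63.9 against 10.3 and Edem2 at 42.7 against 7.15. Tnfrsf17, Tent5c and Ell2 were at 7.87, 243 and 249 CPM against 0, 155 and 216. Over the whole class the same genes were lower and the others higher. In the 34 plasma-rule cells with at least 10 Jchain UMIs the sum of the 10 markers was 2465 CPM. Jchain had at least 10 UMIs in 27 of the 166, and 199 of all 376 cells also met the rule of Cd79a and Ms4a1.

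The 10 genes together held 411434 UMIs, 0.302% of all gene UMIs. The cells under the plasma rule held 40.2% of them, the mixed cells 26.4%, other B 19.8%, the cells of no class 8.48%, follicular B 2.60%, NK cells 1.94% and T cells 0.648%. Most antibody RNA was thus in the small plasma-rule class and in cells that also carried T or NK transcripts.

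**Figure D1:**
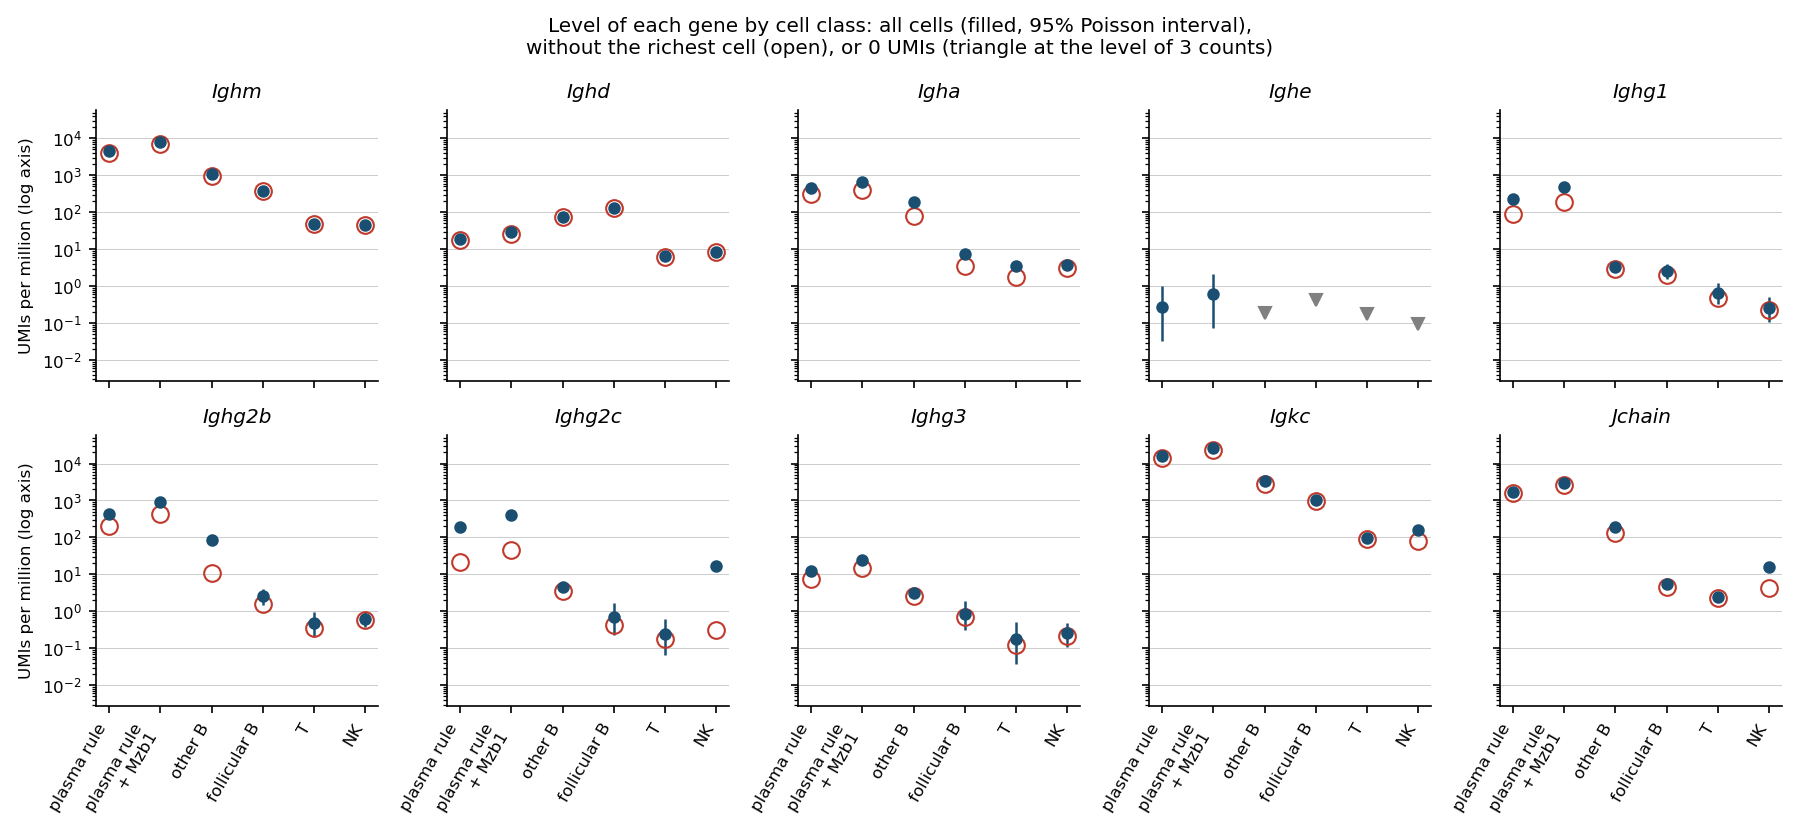
Level of each of the 10 genes (CPM, log axis) in 6 sets of cells, with 95% Poisson intervals around the filled points, the level without the richest cell as an open circle, and a triangle at the level of 3 counts where no UMI was found. Ighd is highest in follicular B (131 CPM), while Ighm, Igkc and Jchain are highest in the plasma-rule cells with Mzb1.

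Ighm, the heavy chain of IgM, was at 4434 CPM (4385 to 4483) under the plasma rule, at 1080 (1064 to 1096) in other B and at 374 (360 to 389) in follicular B cells. In T and NK cells it was at 49.6 (46.3 to 53.1) and 46.4 (44.0 to 48.8). The order was plasma rule, other B, follicular B, then the background, and T and NK did not differ beyond their intervals. The ratio of the plasma-rule cells to follicular B was 11.9 (11.4 to 12.3), and 21.4 (20.5 to 22.2) for the 166 chosen for Mzb1. Per cell, the median was 4 UMIs in other B, 2 in follicular B and also 2 under the plasma rule, whose cells were deeper, and 21.5 in those with Mzb1. Ighm had a UMI in 58.2% of plasma-rule cells, 81.5% of follicular B and 84.7% of other B cells.

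Ighd, the heavy chain of IgD, showed another order. It was at 131 CPM (123 to 140) in follicular B, 76.7 (72.5 to 81.1) in other B, 18.7 (15.6 to 22.1) under the plasma rule, 8.51 (7.53 to 9.59) in NK and 6.71 (5.52 to 8.08) in T cells. Follicular B cells were 1.71-fold (1.57 to 1.87) above other B cells. The plasma-rule cells were at 0.142 times (0.117 to 0.170) the follicular B level. Ighd was the only member that was lower under the plasma rule than in follicular B, and its intervals there lay above both background classes.

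Within single B cells, the balance of the IgM and IgD constant genes differed between the B classes. Among cells with at least 5 UMIs of Ighm and Ighd and under 100 heavy chain UMIs, the median share of Ighd was 20.0% (quartiles 2.86% and 40.0%) in 276 follicular B cells and 0% (quartiles 0% and 18.8%) in 854 other B cells. The few background cells that reached this depth were not free of Ighd, with medians of 18.3% in 44 T cells and 22.2% in 65 NK cells. At least 50% was Ighd in 49 of the follicular B and 53 of the other B cells. Both genes were detected together in 49.8% of all follicular B and 35.4% of all other B cells, against 3.26% of T cells and 2.17% of NK cells. Thinned to 1000 UMIs per cell, which removes depth as a difference, Ighd had a UMI in 12.3% of follicular B, 7.67% of other B, 0.653% of T and 0.523% of NK cells. Before thinning these shares were 57.6%, 40.9%, 4.57% and 3.46%.

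**Figure D2:**
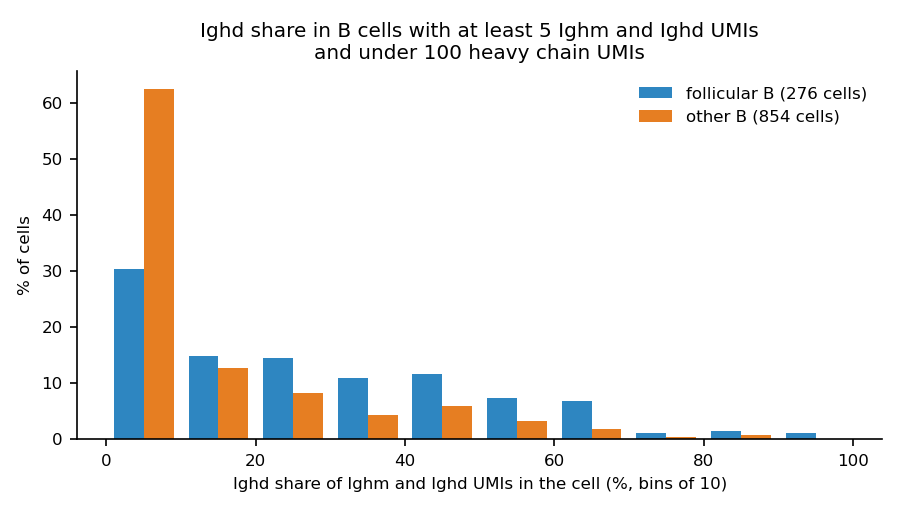
Share of Ighd among the Ighm and Ighd UMIs of a cell (bins of 10%), as the percent of 276 follicular B and 854 other B cells. The lowest bin holds 30.4% of follicular B and 62.5% of other B cells, and the follicular B cells extend further to the right.

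Igha, the heavy chain of IgA, the class of mucosal secretions, was at 444 CPM (429 to 460) under the plasma rule, 186 (179 to 193) in other B, 7.29 (5.43 to 9.59) in follicular B, 3.66 (3.02 to 4.39) in NK and 3.63 (2.77 to 4.67) in T cells. Few cells set these levels. The richest cell held 1721 of the 3008 UMIs in other B, and without it the level there was 79.7 CPM. In follicular B, 26 of 51 UMIs were in 1 cell, and without it the level was 3.58 CPM. Without their own richest cells, T cells were at 1.75 CPM and NK cells at 3.12 CPM.

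Ighe, the heavy chain of IgE, was almost absent. It had 6 UMIs in 16325 cells, a level of 0.0440 CPM, and all 6 lay in 2 cells. A mixed cell of 21911 UMIs held 4 of them with 48 UMIs of Igkc, 1 of Ighg1 and none of Ighm, Ighd or Igha. It also had 20 UMIs of the 3 Cd3 genes and 5 of Cd79a and Ms4a1. A plasma-rule cell of 19632 UMIs held the other 2, but with 70 UMIs of Igha, 200 of Iglc2 and 12 of Jchain, so Ighe was not its main heavy chain gene. Neither cell had a UMI of Mcpt8, Cpa3 or Fcer1a, genes of basophils and mast cells. No UMI of Ighe was found in follicular B, other B, T or NK cells. By the Poisson interval a count of 0 allows up to 0.527 CPM in follicular B and 0.228 CPM in other B. A count of 3 in these classes would be 0.429 and 0.185 CPM. In the mixed cell Ighe was 4 of 5 heavy chain UMIs, too few to call a class by the limit of 10 used below.

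The IgG subclasses were higher under the plasma rule than in follicular B, at levels that rested on very few cells. Ighg1, the subclass associated with type 2 responses in mice, was at 231 CPM (220 to 242) against 2.57 (1.53 to 4.07), Ighg2b at 428 (413 to 443) against 2.57 (1.53 to 4.07), Ighg2c, the C57BL/6 form of IgG2a, at 194 (184 to 204) against 0.715 (0.232 to 1.67), and Ighg3 at 12.2 (9.78 to 15.1) against 0.858 (0.315 to 1.87). In the plasma-rule class 1 cell held 60.6% of the Ighg1 UMIs, 52.4% of Ighg2b and 88.8% of Ighg2c. Without that cell the levels were 91.1, 205 and 21.7 CPM. Ighg3 lay almost wholly outside the class, with 1300 of its 1517 UMIs in 1 mixed cell.

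1 cell set the IgG level of the NK class. Ighg2c was at 17.00 CPM there, but 529 of its 539 UMIs came from a cell that also had 2496 UMIs of Igkc and 375 of Jchain, and without it the level was 0.316 CPM. That cell held 49.4% of the Igkc and 73.7% of the Jchain UMIs of all NK cells. It had 133 UMIs of the plasma rule genes and missed the plasma rule only through Trac.

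Igkc, the constant region of the kappa light chain, was at 15703 CPM (15611 to 15796) under the plasma rule, 3407 (3378 to 3435) in other B, 1003 (979 to 1027) in follicular B, 159 (155 to 164) in NK and 97.2 (92.5 to 102) in T cells. Without the richest cell, NK cells were at 80.8 CPM, below T cells at 91.9. A UMI of Igkc was found in 89.0% of follicular B and 89.7% of other B cells, and also in 24.4% of T cells (22.3 to 26.6) and 18.8% of NK cells (17.7 to 20.0). After thinning to 1000 UMIs these shares were 50.4%, 56.9%, 6.33% (5.16 to 7.67) and 4.64%. Detection of Igkc alone therefore did not mark a B cell in this pool.

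Kappa and lambda light chains were largely, but not always, separate within a cell. Of cells with at least 10 light chain UMIs, 219 of 275 follicular B cells had at least 80% from Igkc, 10 had at least 80% from the lambda genes Iglc1, Iglc2 and Iglc3, and 46 had neither. In other B the counts were 592, 35 and 227 of 854, and under the plasma rule 124, 22 and 53 of 199. Cells with neither were thus 16.7% (12.5 to 21.7) of follicular B, 26.6% (23.6 to 29.7) of other B and 26.6% (20.6 to 33.3) of plasma-rule cells. Iglc2 had a UMI in 50.3% of other B and 39.2% of follicular B cells but in 3.72% of T and 2.52% of NK cells. These shares are over all cells of a class, and detection beside Igkc was not counted. The source of the cells with neither was not tested.

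Jchain was at 1717 CPM (1687 to 1748) under the plasma rule, 190 (183 to 197) in other B, 16.0 (14.7 to 17.5) in NK, 5.58 (3.97 to 7.62) in follicular B and 2.48 (1.78 to 3.36) in T cells. The plasma-rule cells were 308-fold (225 to 433) above follicular B. The 166 cells with Mzb1 and without the genes of other lineages were 524-fold (383 to 738) above it. Without cells of hashtag 9 the ratio of 308 was 153, and 15 of the 34 plasma-rule cells with at least 10 Jchain UMIs carried that hashtag. The same ratio was 1026 where the rule asked for 10 UMIs, and 13.7 where a mixed cell counted in every class whose rule it met. Without its richest cell, the NK level was 4.23 CPM.

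Few cells carried nearly all Jchain RNA. Of 16325 cells, 446 had a UMI, 306 of these exactly 1, and 64 had at least 10. Those 64 cells held 97.7% of all 23679 UMIs. They comprised 34 plasma-rule cells (9.04% of the class), 16 mixed, 10 other B, 2 NK and 2 unclassified cells, and no follicular B or T cell. Of the 64, 58 had at least 5 UMIs of the plasma rule genes, but only 38 of these had no Trac. Trac alone kept the others of the 58 out of the plasma rule. The 64 cells had a median of 933 heavy chain UMIs and 41 UMIs of the 4 plasma rule genes. By contrast, a UMI of Ighm was found in 6483 cells, of Igkc in 7122 and of Ighd in 3076, and no cell had more than 12 UMIs of Ighd.

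Over the classes, 8 of the 9 members with at least 50 UMIs in the plasma-rule and follicular B cells together were at least 2-fold higher under the plasma rule, and 1, Ighd, was at least 2-fold lower. Among all 9804 genes with as many UMIs, 20.3% were at least 2-fold higher and 5.91% at least 2-fold lower. The median log2 ratio was 5.93 for the members and 0.04 for all genes. Of the 9 members, 5 (Ighg1, Ighg2b, Ighg2c, Ighg3 and Jchain) reached 50 UMIs only through the plasma-rule cells, where they were high, so the count and the median are a description of the levels above and no support for them. The other 4 had 50 UMIs in each class, and of these Ighm, Igha and Igkc were higher and Ighd lower. Ighe did not have the counts for the comparison. In follicular B against other B, 7 of 9 members were at least 2-fold lower (Ighm, Igha, Ighg2b, Ighg2c, Ighg3, Igkc and Jchain) and none at least 2-fold higher, beside 4.02% and 0.397% of 10075 genes. The same 5 members reached 50 UMIs only through other B, and of the other 4 Ighm, Igha and Igkc were at least 2-fold lower in follicular B. Other B included 11 cells with 100 or more heavy chain UMIs, and without these its Ighm level was 695 CPM. That is less than 2-fold above the 374 CPM of follicular B, so the call for Ighm rests on those 11 cells. Without them Igha, Igkc and Jchain were also less than 2-fold above follicular B, so those calls rest on the same cells. Of the 3008 Igha UMIs in other B, 1 of the 11 cells held 1721 and another 1145.

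To see which class each cell made, the leading heavy chain gene was taken where a cell had at least 10 heavy chain UMIs and at least 80% of them from 1 gene. Of the 161 plasma-rule cells with that depth, 137 (85.1%, 78.6 to 90.2) were led by Ighm, 8 by Igha, 3 by Ighg2b, 2 by Ighg1, 2 by Ighg2c and none by Ighd, Ighe or Ighg3. The other 9 had no leading gene. Those 137 were 36.4% (31.6 to 41.5) of all 376 cells of the class. A UMI of the B cell markers was found in 92.5% of the 161 cells, so these shares are not those of plasma cells alone. In follicular B, Ighm led 57 of 110 such cells (51.8%, 42.1 to 61.4) and 51 had no leading gene, 49 of them because Ighm and Ighd shared the UMIs. In other B, Ighm led 387 of 466 (83.0%, 79.3 to 86.3).

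With at least 3 UMIs of a switched gene and none of Ighm or Ighd, a rule set after the values had been seen, there were 2 of 691 follicular B cells (0.289%, 0.0351 to 1.04), 22 of 1539 other B cells (1.43%, 0.898 to 2.16) and 20 of 376 plasma-rule cells (5.32%, 3.28 to 8.10). The same rule took 2 of 1532 T cells and 2 of 4599 NK cells. Ighm was also found in 26.0% of T cells, so asking for its absence can drop switched cells. With Ighm and Ighd allowed, the counts were 6 follicular B, 49 other B, 42 plasma-rule, 2 T and 4 NK cells. Of the 22 other B cells, 7 were led by Igha, 7 by Ighg2b, 3 by Ighg1, 3 by Ighg2c and 2 by Ighg3.

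Antibody RNA was gathered in 78 cells with at least 100 heavy chain UMIs (a limit also set after the values had been seen). They were 43 plasma-rule, 22 mixed, 11 other B, 1 NK and 1 unclassified cells. They held 59.9% of all Ighm, 92.2% of Igha, 91.5% of Ighg1, 92.9% of Ighg2b, 83.7% of Ighg2c, 89.0% of Ighg3, 71.7% of Igkc and 97.3% of Jchain UMIs, but 3 of the 5876 UMIs of Ighd. By the gene with the most heavy chain UMIs in a cell, with no minimum share, Ighm led 54 of these cells, Igha 15, Ighg2b 4, Ighg1 2, Ighg2c 2 and Ighg3 1.

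Each of these cells was close to a single class. The median share of the leading gene was 100% and 73 of 78 cells were above 95%. In the 54 cells led by Ighm, 46549 of 46634 heavy chain UMIs were Ighm, 44 Igha and 3 Ighd. In the 4 led by Ighg2b, 50 of 6769 UMIs were Ighg2c and none Ighg1 or Ighg3, and in the 2 led by Ighg1 no UMI of another subclass was found among 1637. In the 2 led by Ighg2c, 33 of 1796 UMIs were Ighg3. The source of such minor counts was not tested. The 5 cells at or below 95% were 2 led by Ighm, the lowest at 93.6%, 2 led by Igha with 79.8% and 80.4%, where the rest was mostly Ighm, and the cell led by Ighg3, with 1300 UMIs of Ighg3 beside 193 of Ighg1 and 33 of Ighm.

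The variable and light chain genes, which the choice of cells did not use, were mostly single within a droplet too. Of 47 cells with at least 5 UMIs of heavy chain variable genes, 45 had at least 80% of these from 1 gene, with a median of 100%, and the other 2 were led by Igha. By light chain, 65 of the 78 cells were kappa, 8 lambda and 5 neither, and the 5 were all led by Ighm. The 10 genes made up a median of 12.1% and at most 66.2% of the UMIs in these cells.

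**Figure D3:**
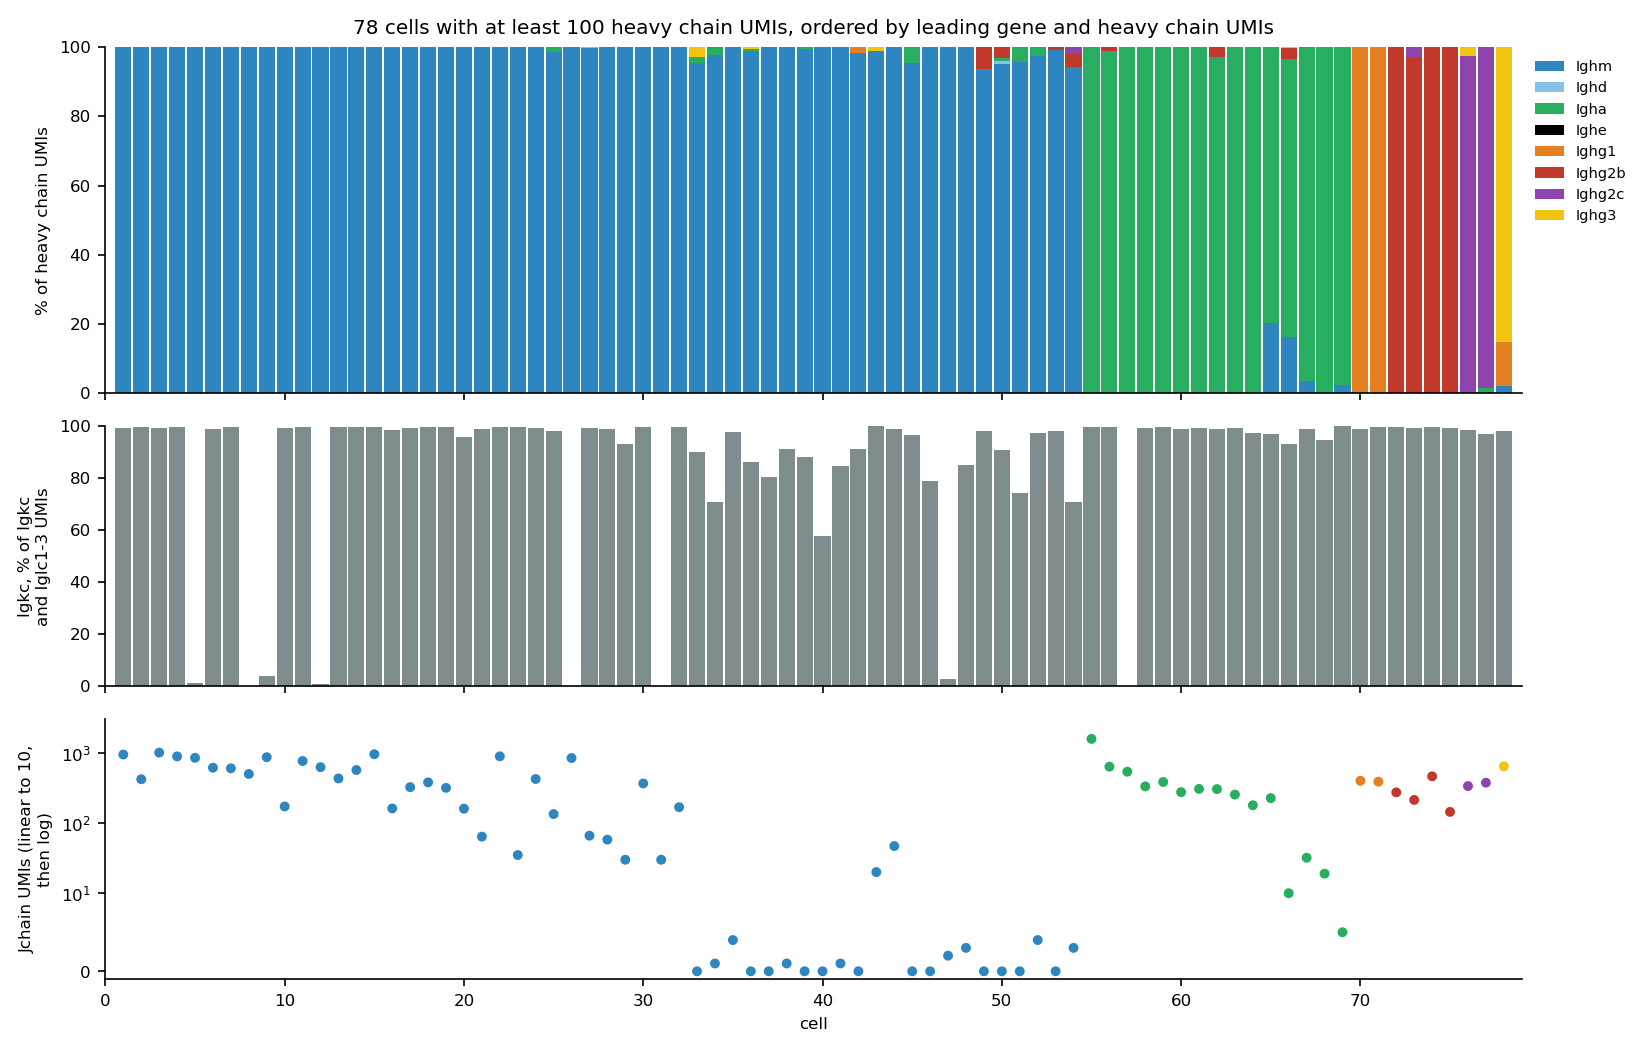
The 78 cells with at least 100 heavy chain UMIs, ordered by leading gene and then by heavy chain UMIs: share of each heavy chain gene (%), share of Igkc among light chain UMIs (%), and Jchain UMIs (linear to 10, log above). The 54 cells led by Ighm form the block on the left, and the cells without Jchain are all in its right part, where heavy chain UMIs are lowest.

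Jchain separated the cells led by Ighm into sets of unlike antibody content. In 34 of the 54, Jchain had at least 10 UMIs, and these had a median of 1249 heavy chain UMIs (range 167 to 3094), 24 Mzb1 UMIs and 3018 Igkc UMIs. In the other 20, of which 12 had no Jchain UMI, the medians were 162.5 heavy chain UMIs (range 102 to 378), 8 Mzb1 and 254 Igkc UMIs, although these cells were deeper (26263 against 17319 UMIs). Of the 15 cells led by Igha, 14 had at least 10 Jchain UMIs, as had all 9 cells led by an IgG gene, with between 144 and 642. Jchain RNA was thus also present in cells whose heavy chain has no J chain tailpiece.

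Doublets and depth touch these cells. Scrublet, which scores likeness to simulated doublets, marked 6 of the 78 (7.69%) and 8.18% of all kept cells. By hashtags 16 were called doublets and 14 negative, and 26 had a UMI of Cd3d, Cd3e, Cd3g, Ncr1 or Klre1. In the 44 that had 1 hashtag and no mark, Ighm led 34, Igha 6, Ighg2b 2, Ighg2c 1 and Ighg3 1. The part of doublets in the mixed class was not tested.

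The 27 other genes fixed for antibody production covered class switching, RNA processing, the secretory pathway and the B cell receptor. In the plasma-rule cells against follicular B, 9 of the 23 with enough counts were at least 2-fold higher and 4 at least 2-fold lower, beside 20.3% and 5.91% of all genes. The 9 were Hnrnpll, a splicing factor, and 8 genes of protein folding, export or degradation in the endoplasmic reticulum. Derl3 was at 12.2 against 0.429 CPM (ratio 28.5, 9.42 to 141), Hnrnpll at 29.6 against 2.29 CPM (12.9, 7.78 to 23.1), Sec11c, a signal peptidase subunit, at 259 against 28.9 CPM and the chaperone Hsp90b1 at 992 against 272 CPM. Also higher were Fkbp11, Creld2, Herpud1, Pdia4 and Edem2. Of the 9 plasma cell markers with enough counts, 4 were higher (Derl3, Fkbp11, Creld2 and Edem2) and 2 lower (Irf4 and Pou2af1). These 9 markers are all among the 23 genes, so this count is a part of the one above. All these 2-fold calls are for the whole class, in which 215 of 376 cells had under 10 heavy chain UMIs. Hnrnpll, Sec11c, Herpud1, Hsp90b1 and Pdia4 were not examined by the heavy chain UMIs of the cells. Their calls are therefore not tied to cells with antibody RNA. With under 10 heavy chain UMIs Pou2af1 was at 54.8 CPM, with 10 or more at 268, and in follicular B at 324. Its 2-fold call therefore rests on the cells with under 10. Irf4 was at 198 and 408 CPM in these sets, and Creld2 at 109 and 73.6. The 408 CPM of Irf4 was less than 2-fold below the 747 CPM of follicular B. The 2-fold call of Irf4 thus also rests on the cells with under 10. Derl3, Fkbp11 and Edem2 were higher with 10 or more. In plasma-rule cells with at least 10 Jchain UMIs, Pou2af1 was at 330, Irf4 at 146 and Creld2 at 275 CPM. Over the whole class, the 4 lower genes of the 23 were Ung, Irf4, Pou2af1 and Vpreb3. Ung, a repair enzyme of class switching, was at 13.0 against 43.8 CPM. The transcription factor Irf4, a fellow regulator of Pou2af1, was at 297 against 747 CPM.

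Tnfrsf17, the BCMA receptor of plasma cells, had 36 UMIs in the plasma-rule cells and none in follicular B. Among plasma-rule cells with at least 10 Jchain UMIs, Tnfrsf17 had a UMI in 26.5% and Derl3 in 64.7%, while in those with under 10 heavy chain UMIs the shares were 0% and 3.26%. Creld2 differed less, with 70.6% and 50.2%. In follicular B against other B, 22 of these genes had enough counts. Of the 22, 2 (Sec11c and Edem2) were at least 2-fold lower and none at least 2-fold higher. Over all 10075 genes of that comparison, 4.02% were at least 2-fold lower and 0.397% at least 2-fold higher. Whether the calls of Sec11c and Edem2 hold without the 11 antibody-rich cells of other B was not tested.

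Gates on marker genes divided the 2230 B cells further, and a cell could enter several gates. The 70 cells with marginal zone genes, which by rule had no Fcer2a, had 1781 CPM of Ighm, but 677 without 1 cell of 1274 UMIs, and 35.4 CPM (25.3 to 48.3) of Ighd. The 1052 cells with B1 genes had 1046 CPM of Ighm, 66.4 (62.1 to 70.9) of Ighd and 224 of Igha, the last at 96.7 without the richest cell. In the 1131 cells with CD11c memory genes, Ighm was at 810 CPM and Ighd at 91.0 (86.0 to 96.2). The 67 cells with germinal centre genes had 797 CPM of Ighm and 62.4 (47.9 to 79.8) of Ighd. All 1164 UMIs of Ighg2b in that gate came from 1 cell. The B1 and CD11c memory gates shared 631 cells and so are not separate populations. Every gate had less Ighd than the 131 CPM of follicular B cells, but only the marginal zone gate was separate from that class. Follicular B cells were 327 of the CD11c memory gate, 254 of the B1 gate and 14 of the germinal centre gate.

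**Figure D4:**
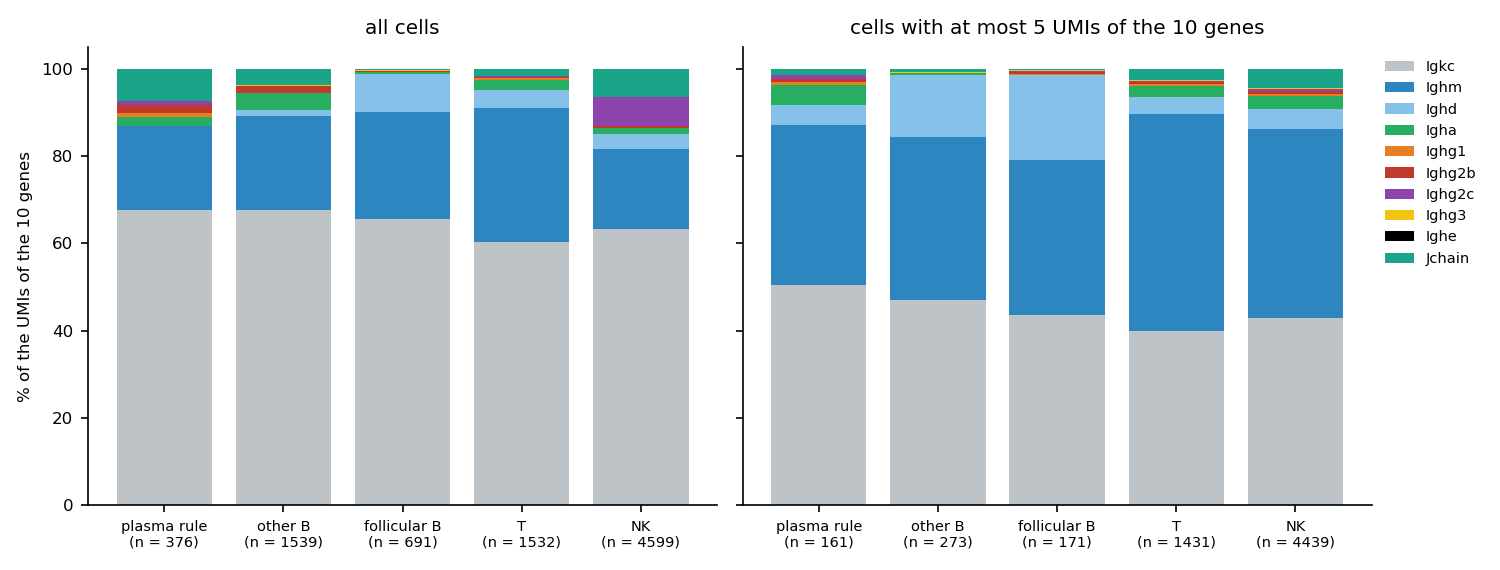
Make-up of the UMIs of the 10 genes (%) in each class, for all cells on the left and for cells with at most 5 such UMIs on the right. Among the latter, Ighd makes up 19.3% in follicular B against 3.99% in T and 4.60% in NK cells.

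Cells with little antibody RNA were taken to describe the background, but its composition depends on that limit. Over all T cells, Igkc was 60.3% and Ighm 30.8% of the UMIs of the 10 genes. Over all NK cells they were 63.2% and 18.4%, with 49.4% of the Igkc in 1 cell. Of T cells, 1431 of 1532 had at most 5 UMIs of the 10 genes, and of NK cells 4439 of 4599. In these T cells the 977 UMIs were 49.7% Ighm (46.6 to 52.9), 39.8% Igkc (36.7 to 43.0), 3.99% Ighd (2.85 to 5.42) and 2.56% Jchain (1.66 to 3.75). The NK cells had less Ighm, 43.3% (41.2 to 45.5), with 42.8% Igkc (40.7 to 44.9), 4.60% Ighd (3.76 to 5.58) and 4.42% Jchain (3.59 to 5.37). In the 171 follicular B cells under the same limit Ighd made up 19.3% (16.1 to 22.9) and Jchain 0.362% (0.0438 to 1.30). Under that limit, follicular B cells thus did not have the composition of the T and NK cells.

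Of the 78 antibody-rich cells, 24 were among 5026 cells of hashtag 9 (0.478%), 17 among 3134 of hashtag 10 (0.542%), 6 among 1317 of hashtag 11 (0.456%) and 1 among 1645 of hashtag 12 (0.0608%). The share of hashtag 12 rests on that 1 cell. Jchain under the plasma rule was at 3546 CPM (3460 to 3633) for hashtag 9, 507 (470 to 546) for hashtag 10, 14.5 (8.26 to 23.5) for hashtag 11 and 54.8 (37.0 to 78.3) for hashtag 12, the last wholly from 1 cell of 30 UMIs. These Jchain levels were 3041, 284, 5.56 and 0 CPM without the richest cell of each. Only 15, 3, 1 and 1 of these cells had at least 10 Jchain UMIs. The plasma-rule class held 96, 81, 57 and 32 cells of the hashtags, and Ighm there was at 8065, 2789, 676 and 1464 CPM. Without the richest cell of each, these Ighm levels were 6555, 1925, 626 and 571 CPM, which turns the order of hashtags 11 and 12. In mixed cells, Jchain was instead highest for hashtag 11, at 1478 CPM (1412 to 1546) against 772 for hashtag 9, 184 for hashtag 10 and 4.66 for hashtag 12. Without the richest cell of each, these levels were 840 for hashtag 11, 87.6 for hashtag 9, 26.7 for hashtag 10 and 2.87 for hashtag 12. The same order was not seen in follicular B, where Ighm was at 308 (281 to 336), 346 (317 to 378), 396 (352 to 443) and 443 CPM (401 to 489), and Ighd at 164 (145 to 185), 112 (95.1 to 130), 82.6 (63.3 to 106) and 144 (120 to 171). The share of Ighd among Ighm and Ighd UMIs in these cells was 34.8%, 24.4%, 17.3% and 24.5%. In other B cells without the richest cell, Ighm was at 610, 862, 531 and 878 CPM. T cells, the background, had 58.3, 40.8, 49.6 and 34.1 CPM of Ighm and 77.6, 82.7, 67.4 and 63.4 CPM of Igkc. Median counts of the hashtags over all kept cells were 92, 51, 10 and 21, and 2754 cells were called doublets and 2449 negative. Whether a difference comes from mouse, condition or hashtag calling cannot be told apart.

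**Figure D5:**
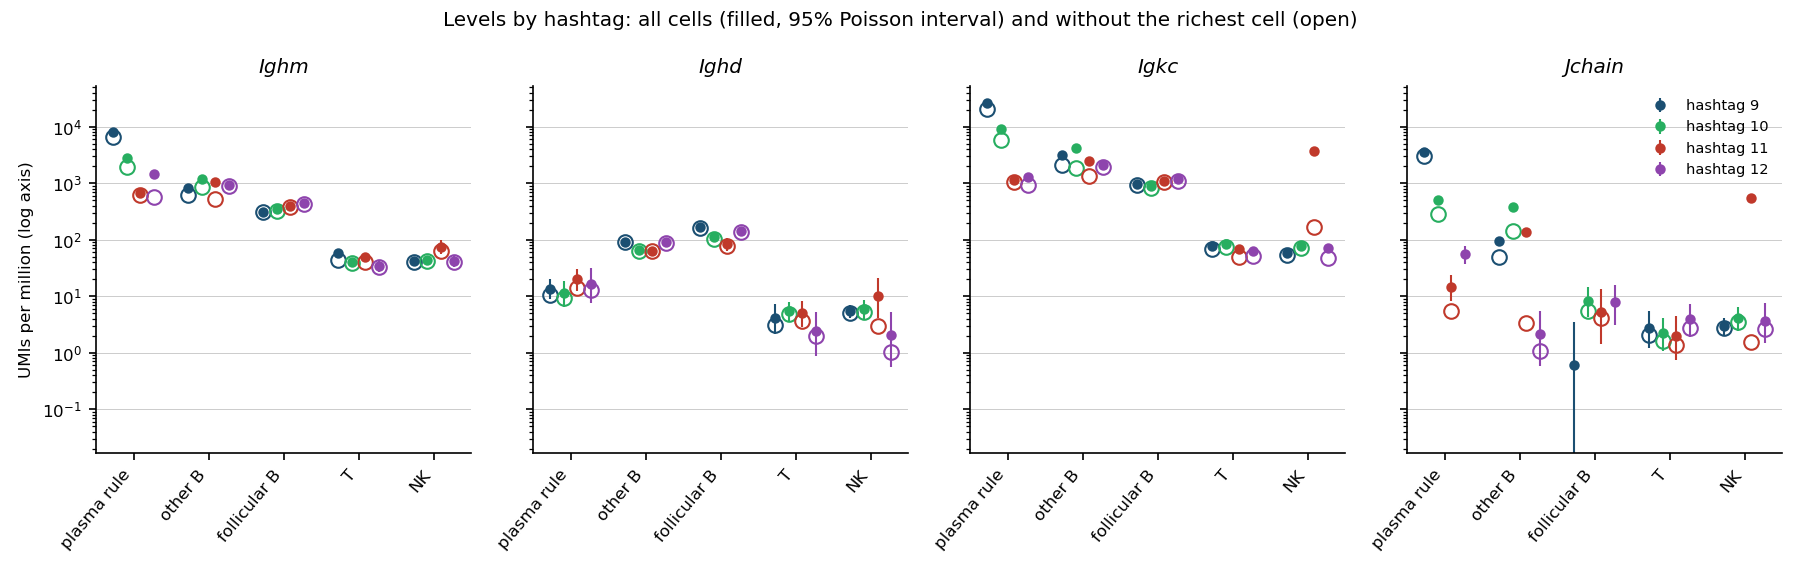
Levels of Ighm, Ighd, Igkc and Jchain (CPM, log axis) in 5 classes for hashtags 9, 10, 11 and 12, with 95% Poisson intervals, and open circles for the level without the richest cell. Jchain under the plasma rule spans 14.5 to 3546 CPM over the hashtags, while Ighm in follicular B spans 308 to 443 CPM. Without the richest cell, Jchain under the plasma rule spans 0 to 3041 CPM, and no open circle is drawn at 0.

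Some genes followed the members across the 28 combinations of 7 classes and 4 hashtags (Pearson's r of log2(CPM + 10), over 13085 genes with at least 100 UMIs, as a description without a test, since the points share libraries and differ in depth). Nearest to Jchain were Iglv1 (0.896), Txndc5 (0.877) and Tnfrsf17 (0.827), and nearest to Igkc were Gm30211 (0.924), Ly6d (0.884) and Mzb1 (0.843). Ighm was closest to Iglc2 (0.897), Ly6d (0.880) and Cacna1s (0.861), and Ighd to Phip (0.973), Stap1 (0.955) and Cr2 (0.952).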

How the data were processed

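The authors deposited UMI counts per gene and hashtag for each called cell of 1 pool, made with Cell Ranger on GRCm38/mm10 from a 10x 3′ v3.1 library. Its version is 7.2.0 in the submitters' processing notes and 7.0.0 in the matrix itself. The counts were not normalized. The 10 genes, cell rules and gene lists were chosen with earlier results of these data known. Named genes were the 10 genes, the genes of the rules, the lambda genes, fixed marker and pathway lists, and for 4 members the 3 genes of most similar profile.

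Cells of 200 or more genes, with no more than 10% of UMIs from mitochondrial genes, were put into classes by rule, plasma before B, and cells meeting a T or NK rule with another lineage rule were set apart. Hashtags were called with HTODemux (Seurat 5.3.0, R 4.3.3, quantile 0.85) and doublets marked with Scrublet (scanpy 1.11.5, expected rate 0.1) but kept. For depth, cells were thinned at random to 1000 UMIs, which left out 293 shallower cells (1 under the plasma rule, 8 NK and 284 unclassified). Sums over cells gave CPM with exact Poisson intervals, shares Clopper-Pearson and ratios conditional binomial 95% intervals (SciPy 1.17.1, Python 3.11.15). Ratios over all genes used genes with at least 50 UMIs in both classes together and a 2-fold limit. With 1 sample, no group was tested. UMIs mark molecules, so levels were not divided by gene length. Alternatives were a stricter filter, 1 hashtag only, no marked doublets, mixed cells kept, other plasma rules, other CPM totals, a mean over cells, thinning, and leaving out the richest cell or each hashtag. Sequences and positions came from GENCODE on GRCm38. A withheld item of the pathway list is not reported here.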

Additional observations from a re-analysis of the deposited data

Results flagged for a closer look

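Barcodes that failed the filter entered no comparison, yet 6 members were above their level in both T and NK cells there. In these 504 barcodes (median 798 UMIs), Igkc was at 1033 CPM (95% Poisson interval 956 to 1116), Igha at 267 (228 to 310), Ighm at 224 (188 to 264), Ighg2c at 68.3 (49.4 to 92.0), Ighg2b at 34.9 (21.9 to 52.9) and Jchain at 33.3 (20.6 to 51.0). In T cells the same genes were at 97.2, 3.63, 49.6, 0.242, 0.483 and 2.48 CPM. A few barcodes carried much of it, since 34 of 43 Ighg2c and 63 of 168 Igha UMIs were each in 1 barcode. Of the 11 barcodes with at least 10 heavy chain UMIs, Igha led 4 and Ighm 4.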

How the results depend on the processing

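The count of 8 members at least 2-fold higher under the plasma rule was between 6 and 8 in its 14 alternatives. It was 6 of 7 members with enough counts after thinning to 1000 UMIs, and 7 of 8 with cells of 1 hashtag only. The limit of 50 UMIs was kept in every alternative. Ighg1, Ighg2b, Ighg2c, Ighg3 and Jchain passed it in the main setting only through the plasma-rule cells, where they were high. The stability of the count is therefore no support for it. In the main setting 20.3% of all genes were at least 2-fold higher, and this share was not recomputed for the alternatives. The Jchain ratio of plasma rule to follicular B (308) was above 1 in all 14 alternatives. It was 13.7 with mixed cells kept and a cell counted in every class whose rule it met, 536 with Mzb1 required and other lineages left out, 1026 at 10 UMIs of the plasma rule, 584 as a mean over cells, and 153 to 412 without 1 hashtag. Cells that left the plasma rule were classed again, so follicular B had 696 cells for the 536 and 710 for the 1026. The Ighd ratio of follicular to other B (1.71) was 1.52 as a mean over cells and between 1.64 and 1.77 in the other 13 alternatives. The share of plasma-rule cells led by Ighm (85.1%) was 75% at 10 UMIs of the plasma rule, 71.4% after thinning, where 35 cells had 10 heavy chain UMIs, and 78.6% with at least 50 heavy chain UMIs. The share of T cells with Igkc (24.4%) was 21.5% without cells marked by Scrublet, 31.7% with mixed cells kept and 6.33% after thinning. The other alternatives stayed within the counting intervals of these values. No paired analysis was possible because the pool has no replicates. The count of 0 for Ighe in other B cells allows up to 0.228 CPM by the Poisson interval, and IgG levels rest on a handful of cells.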
